A study of Mus musculus with 64 samples.

Results

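Chaperones bind unfolded or misfolded protein and help it fold, refold or go to degradation. The genes described here are the Hsp70, Hsp90, Hsp110, small heat shock protein and mitochondrial chaperonin genes, the J-domain proteins (DNAJA, DNAJB and DNAJC) and the heat shock transcription factor Hsf1. They were taken by symbol: every row of the count table whose symbol begins Dnaja, Dnajb, Dnajc, Hspa, Hspb or Hsp90, or is Hspd1, Hspe1, Hsph1 or Hsf1, without 3 rows marked as pseudogenes. This gave 76 rows of 48795 genes and 75 symbols, because Hspa14 stands on 2 rows. The second of these rows carries the name Gm45902 in the GENCODE annotation and overlaps Hspa14 on the same strand, so the reads of the pair cannot be told apart with certainty. By family there were 28 DNAJC, 13 DNAJB and 4 DNAJA genes, 7 cytosolic Hsp70 rows, 3 Hsp70 genes of the endoplasmic reticulum (ER) or mitochondria, 2 distant Hsp70 relatives (Hspa12a and Hspa12b), 3 Hsp110 genes, 3 Hsp90 genes, 2 chaperonin genes, 8 Hspb genes, 2 genes named for binding an Hsp (Hspbp1 and Hspbap1) and Hsf1.

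In the Hsp70 cycle, a J-domain protein brings a client to Hsp70 and triggers ATP hydrolysis, an Hsp110 protein or another exchange factor then releases the nucleotide, and Hsp90 takes over many clients with its own co-chaperones. Hsf1 switches on the inducible members, among them Hspa1a, Hspa1b, Dnajb1, Hspb1 and Hsph1, when unfolded protein accumulates in the cytosol. The ER has its own set, with Hspa5 (BiP), Hsp90b1 (Grp94) and Dnajc3, induced by the unfolded protein response. Chaperones of these families are studied in Huntington's disease because mutant huntingtin, with its long glutamine tract, misfolds and aggregates.

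Striatum and cerebral cortex of 32 C57BL/6 mice aged 6 months were sequenced, 64 libraries in all, with 8 mice (4 males and 4 females) per genotype. The genotypes were Q140, WT, Q140 Polq+/- and Polq+/-. Q140 mice are knock-ins that carry a lengthened CAG repeat in their own huntingtin gene (Htt), given as heterozygous in both Q140 groups, and no promoter or Cre line limits it to a cell type. Polq+/- mice are labelled as lacking 1 copy of Polq, which encodes DNA polymerase theta. Each library came from 1 animal's dissected tissue, a mixture of cell types: in such samples fewer cells of a type and less RNA per cell cannot be told apart. Total gene counts were 28.7 to 40.6 M in striatum (median 34.7 M) and 30.9 to 40.1 M in cortex (median 34.5 M).

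The labels were checked first. Polq had a lowest, median and highest level of 0.187, 1.81 and 2.36 CPM (counts scaled to library size and composition) in Q140 Polq+/- striatum and of 0.376, 1.72 and 2.42 CPM in Polq+/- striatum, against 2.24, 3.25 and 3.50 CPM in Q140 striatum and 2.46, 3.11 and 4.08 CPM in WT striatum. Levels in the mice labelled Polq+/- spread widely, down to a small part of the WT level. The spiny neuron markers were present in every striatal library, with 14 of 14 passing the filter on low counts. Their summed level was 11200 to 13200 CPM in Q140 and 18400 to 22200 CPM in WT striatum, and 11800 to 12900 CPM in Q140 Polq+/- and 20000 to 21200 CPM in Polq+/- striatum. All 14 fell with Q140 in both comparisons, beside every striatal result that follows, and their part in those results was not tested. In cortex the markers of cortical excitatory neurons summed to 1880 to 2200 CPM in all mice. Of the striatal libraries 3 stood apart. WT male 3 held values far from its group for several members, WT male 2 had 155 CPM of cerebellar granule cell markers against a WT median of 22.7 CPM, and Polq+/- female 3 had 1410 CPM of choroid plexus markers against a Polq+/- median of 34.3 CPM.

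Before any comparison, the levels per transcript length (FPKM, counts divided by gene length and library size) showed where the bulk of the family lies. Hsp90ab1, the constitutive cytosolic Hsp90, led both tissues, with 447 ± 21.8 FPKM in striatum and 407 ± 13.8 FPKM in cortex (SD, n = 32). It made up 25.9 to 27.5% of the members' summed FPKM in striatum and 22.2 to 24.9% in cortex. Hspa8, the constitutive cytosolic Hsp70, came next at 99.0 ± 11 FPKM in striatum and 112 ± 5.79 FPKM in cortex. The other members among the leading 10 in striatum were Hsp90b1 (76.8 ± 9.26 FPKM), Hsp90aa1 (63.1 ± 3.97), Dnaja2 (59.6 ± 3.15), Hspa5 (59.2 ± 10.5), Hspa9 (53.0 ± 1.72), Dnajc5 (48.1 ± 1.78), Hsph1 (46.3 ± 4.44) and Hspa4 (41.4 ± 2.47 FPKM; SD, n = 32 each). Below Hsp90ab1, the ranges over 32 mice of every pair of neighbours in this striatal order overlapped. In cortex Dnajc6 (64.3 ± 2.25 FPKM) and Hspa12a (51.3 ± 2.26 FPKM) entered the leading 10, and Hsph1 and Hspa4 left it. All members together made up 0.547 to 0.63% of the summed FPKM in striatum and 0.597 to 0.659% in cortex.

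**Figure D1:**
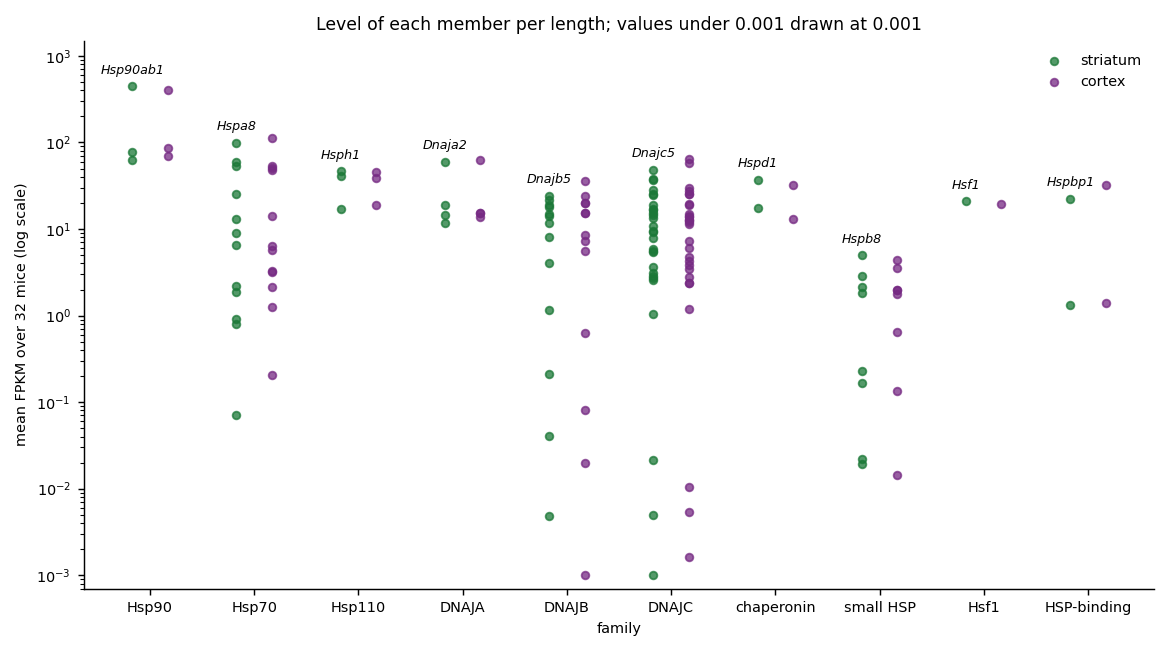
Mean FPKM over 32 mice of each member (points, log axis) by family, in striatum (green) and cortex (purple). Hsp90ab1 stands highest at 447 FPKM in striatum, and 6 rows with fewer than 100 counts in total (Dnajb7, Dnajb8, Dnajc5b, Dnajc5g, Dnajc22 and Hspb9) lie at the foot.

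A filter on low counts left 66 members in striatum and 70 in cortex. Dnajb7, Dnajb8, Dnajc5b, Dnajc5g, Dnajc22 and Hspb9 passed in neither tissue, and Hspa1l, Hspb2, Hspb3 and Hspb7 passed in cortex only. Hspa1a and Hspa1b are near-identical neighbouring copies on chromosome 17, so how their reads were divided is uncertain. The RefSeq promoters (GRCm38.p6, the 250 bases before the start) were searched for 2 motifs on both strands: 60 member symbols with 77 promoters were in the table. A heat shock element, written as GAA, TTC and GAA with 2 unspecified bases between each, was found in 153 of 32851 promoters (0.466%), and among members in those of Dnajb6, Hspd1 and Hspe1. An ER stress element, written as CCAAT and CCACG with 9 unspecified bases between them, was found in 37 of 32851 promoters (0.113%), and among members in those of Dnajc3, Hsp90b1 and Hspa5. These 4 windows are shown because their genes are set side by side in the ER and mitochondrial results, with the matches in capitals.
Hsp90b1 (chr10:86705445-86705694, minus strand): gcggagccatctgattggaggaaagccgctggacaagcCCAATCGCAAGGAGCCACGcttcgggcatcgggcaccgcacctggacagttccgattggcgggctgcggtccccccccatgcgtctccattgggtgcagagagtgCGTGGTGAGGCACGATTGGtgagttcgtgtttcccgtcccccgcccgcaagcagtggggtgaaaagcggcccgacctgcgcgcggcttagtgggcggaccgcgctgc
Hspa5 (chr2:34771840-34772089, plus strand): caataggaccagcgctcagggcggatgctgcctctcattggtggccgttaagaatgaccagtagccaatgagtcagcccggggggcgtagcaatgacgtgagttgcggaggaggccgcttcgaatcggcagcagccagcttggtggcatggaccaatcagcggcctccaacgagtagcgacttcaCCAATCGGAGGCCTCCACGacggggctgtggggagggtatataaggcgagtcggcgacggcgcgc
Dnajc3 (chr14:118937682-118937931, plus strand): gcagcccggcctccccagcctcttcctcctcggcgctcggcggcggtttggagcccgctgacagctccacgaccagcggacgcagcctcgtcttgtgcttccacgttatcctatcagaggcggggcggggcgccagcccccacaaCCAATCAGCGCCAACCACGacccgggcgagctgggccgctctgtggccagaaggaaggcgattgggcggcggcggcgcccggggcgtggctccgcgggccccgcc
Hspd1-Hspe1 (chr1:55087933-55088147, plus strand, the 215 bases between the starts of this divergent pair): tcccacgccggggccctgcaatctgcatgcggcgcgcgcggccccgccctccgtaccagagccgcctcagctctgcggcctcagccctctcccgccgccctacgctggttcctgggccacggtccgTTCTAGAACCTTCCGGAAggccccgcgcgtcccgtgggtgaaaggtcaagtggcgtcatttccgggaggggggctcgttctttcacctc
A match describes the letters of a window and is not a measured binding site. Members without a promoter in the table could not match, and elements with other letters or farther from the start were not sought. A missing match therefore does not show that a member lacks the element. The Hsp90b1 window held the ER stress element once on each strand.

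The question of the design was what Q140 changed, first in mice with both Polq copies. In striatum 20 of 66 members differed between Q140 and WT (edgeR quasi-likelihood test, Benjamini-Hochberg adjusted p under 0.05 over all genes): 9 rose and 11 fell. This is 30.3% of the members, against 32.1% of 18270 genes called (16.9% higher and 15.2% lower), so the members' share lay near the background. The differences were small: the largest fall was 20% (Dnajc8) and the largest rise 21.5% (Hspa13), and the members' median absolute log2 difference was 0.08, against 0.12 over all genes. The split of directions depended on the scaling: on the deposited FPKM, which carry no correction for library composition, 23 members rose and 5 fell, and over all genes 74.7% of the calls were rises, against 52.7% on the counts.

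Among the J-domain genes, Dnajc8, whose human product is found in spliceosomes, had a lowest, median and highest level of 63.2, 65.5 and 66.6 CPM in Q140 striatum, against 74.9, 80.2 and 93.4 CPM in WT striatum. The groups did not overlap, and in cortex Q140 mice had 60.9 to 67.2 CPM and WT mice 62.2 to 69.3 CPM. The striatal log2 fold change was -0.32 ± 0.0312 (SE, n = 8 each; edgeR adjusted p = 1.58e-10). Dnajc2, which binds the ribosome together with Hspa14, had 40.2, 42.1 and 44.6 CPM in Q140 against 45.8, 52.5 and 58.4 CPM in WT striatum. Again no Q140 mouse reached the lowest WT mouse, and the log2 fold change was -0.31 ± 0.0392 (edgeR adjusted p = 5.04e-08). Its partner Hspa14 fell by 0.11 on the log2 scale (edgeR adjusted p = 0.0103), but this call was lost on FPKM by limma (highest adjusted p = 0.257). The row named Gm45902, whose reads cannot be told apart from those of Hspa14 with certainty, lay on the other side at 0.19 ± 0.0795 (edgeR adjusted p = 0.0653). Dnajc7, a tetratricopeptide co-chaperone that binds both Hsp70 and Hsp90, had 163, 168 and 176 CPM in Q140 and 178, 198 and 213 CPM in WT striatum, a log2 fold change of -0.22 ± 0.0285 (edgeR adjusted p = 7.62e-08). Cnp, which overlaps Dnajc7 on the other strand, had a log2 fold change of -0.05 ± 0.0497 in the same comparison (edgeR adjusted p = 0.537).

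Dnajc6, neuronal auxilin, which with Hspa8 strips clathrin from vesicles, went the other way. It had 225, 232 and 238 CPM in Q140 and 191, 201 and 211 CPM in WT striatum, without overlap (log2 fold change 0.20 ± 0.0218, edgeR adjusted p = 1.82e-09). Hspa8 itself had 405, 448 and 485 CPM in Q140 against 349, 403 and 456 CPM in WT striatum. These groups overlapped, with 2 of 8 Q140 mice above the highest WT mouse (log2 fold change 0.15 ± 0.0518, edgeR adjusted p = 0.0257). The call for Hspa8 was lost without any of 5 single libraries (highest edgeR adjusted p = 0.0702). Dnajc12, which binds aromatic amino acid hydroxylases, rose by 0.17 (log2, edgeR adjusted p = 0.00877), Dnajc15 of the mitochondrial inner membrane by 0.16 (0.00326), Dnajc18, an ER membrane J-domain protein, by 0.15 (0.000108) and Dnajb14 of the ER membrane by 0.14 (0.000692).

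Of the remaining Hsp70 genes, Hspa13, a microsomal Hsp70 without the substrate-binding domain, had 55.3, 58.0 and 62.6 CPM in Q140 and 44.4, 48.4 and 50.3 CPM in WT striatum. No mouse overlapped (log2 fold change 0.28 ± 0.0317, edgeR adjusted p = 5.35e-09). Hspa2, best known from the testis, had 33.3, 35.3 and 38.6 CPM in Q140 and 21.9, 30.5 and 34.7 CPM in WT striatum, and 6 of 8 Q140 mice lay above every WT mouse (log2 fold change 0.26 ± 0.0551, edgeR adjusted p = 0.000276). Hspa12a rose by 0.14 (edgeR adjusted p = 0.00936), while Hspa12b, which is known from endothelial cells, fell by 0.28 (edgeR adjusted p = 0.012). Endothelial markers moved with Hspa12b: 6 of 8 fell and none rose, and their summed level was 192 to 213 CPM in Q140 and 222 to 247 CPM in WT striatum. Their part in the Hspa12b result was not tested. Hspa12b was no longer called without the 3 libraries that stood apart (log2 fold change -0.19, edgeR adjusted p = 0.0705).

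**Figure D2:**
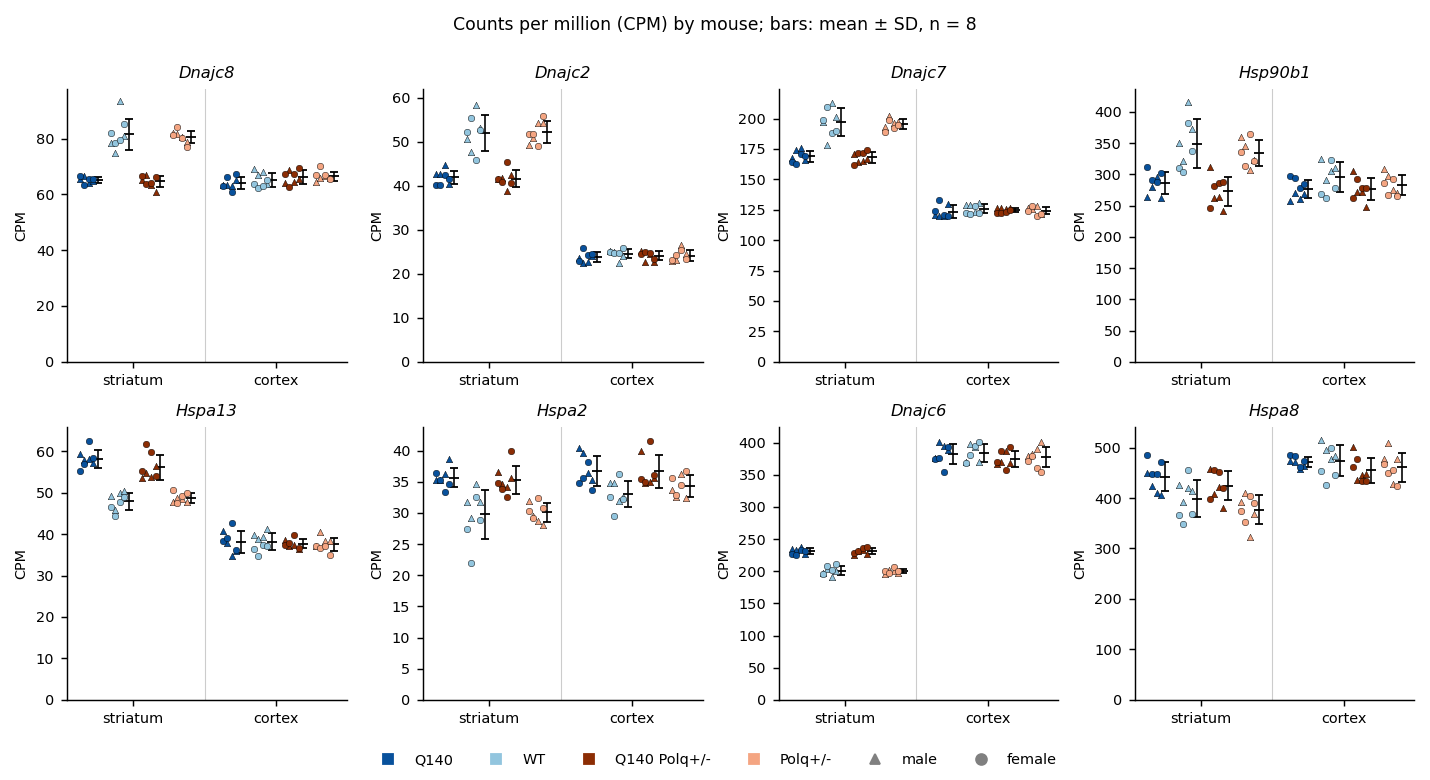
CPM of 8 members in each mouse by tissue and genotype (triangles male, circles female; horizontal marks and bars, mean ± SD, n = 8). In striatum Dnajc8, Dnajc2 and Dnajc7 sit lower, and Hspa13 and Dnajc6 higher, in both Q140 groups without overlap with their controls, while in cortex Q140 and control mice overlap for all 8 genes.

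In the ER and among the remaining families, Hsp90b1 had 262, 289 and 311 CPM in Q140 against 304, 344 and 415 CPM in WT striatum. Of the Q140 mice 7 of 8 lay under every WT mouse (log2 fold change -0.29 ± 0.0574, edgeR adjusted p = 0.000173). Hspa5 and Dnajc3, whose promoters hold the same element, were not called: Hspa5 had 223, 250 and 279 CPM in Q140 and 213, 265 and 379 CPM in WT (log2 fold change -0.14 ± 0.118, edgeR adjusted p = 0.41), and Dnajc3 had a log2 fold change of 0.00 ± 0.0507 (adjusted p = 0.998). The SE of Hspa5 leaves room for a fall as large as that of Hsp90b1, and whether these genes differed was not tested. Hspe1, the mitochondrial Hsp10, fell by 0.14 (log2, edgeR adjusted p = 0.00991), whereas Hspd1, the Hsp60 subunit encoded across the shared promoter, had a log2 fold change of -0.01 ± 0.0354 (adjusted p = 0.805). The Hspe1 call was lost with the plate column as a covariate (edgeR adjusted p = 0.0582) and on FPKM by limma (adjusted p = 0.175). Hspa4, an Hsp110 exchange factor, had 210, 218 and 230 CPM in Q140 and 231, 244 and 266 CPM in WT striatum and fell by 0.16 (edgeR adjusted p = 0.000734) without overlap between the groups. Hspb8, a small heat shock protein that works with Bag3, fell by 0.20 (edgeR adjusted p = 0.0255), and Dnaja1, a main J-domain partner of Hspa8, by 0.11 (edgeR adjusted p = 0.0352). Without WT male 3 Dnaja1 was not called (edgeR adjusted p = 0.074), and without the 3 libraries Hspb8 was not (0.17).

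Of the heat-inducible arm, Hsf1 itself fell by 0.14 (log2, SE 0.041, edgeR adjusted p = 0.00947), with 36.4, 41.0 and 43.6 CPM in Q140 and 41.2, 44.3 and 49.0 CPM in WT striatum. The Hsf1 call was lost with the plate column as a covariate (log2 fold change -0.11, edgeR adjusted p = 0.0661) and on FPKM by limma (adjusted p = 0.171). The Hsf1 targets named above were not called. Hspa1a had 1.56, 3.09 and 5.05 CPM in Q140 and 1.57, 2.51 and 3.78 CPM in WT striatum (log2 fold change 0.32 ± 0.185, edgeR adjusted p = 0.203). Hspa1b had 1.30, 2.13 and 5.70 CPM in Q140 and 1.27, 2.45 and 3.36 CPM in WT (0.01 ± 0.312, edgeR adjusted p = 0.985). The groups overlapped almost wholly for both copies, and the SE of Hspa1b leaves room for a change as large as any called above. Dnajb1 had a log2 fold change of 0.02 ± 0.0582 (edgeR adjusted p = 0.812) and Hsph1 of -0.04 ± 0.0667 (0.695). Hspb1 had 1.43, 2.0 and 3.0 CPM in Q140 and 1.81, 2.68 and 3.31 CPM in WT striatum (log2 fold change -0.33 ± 0.138, edgeR adjusted p = 0.0624). DESeq2 called Hspb1 (adjusted p = 0.0473). Among the most abundant members, Hsp90ab1 (-0.01 ± 0.0308, adjusted p = 0.822), Hsp90aa1 (-0.02 ± 0.0399, 0.762) and mitochondrial Hspa9 (-0.03 ± 0.024, 0.34) were not called by edgeR. Neither were Dnajb6, a suppressor of polyglutamine aggregation (-0.01 ± 0.0382, edgeR adjusted p = 0.819), nor Dnajc5, the cysteine string protein of synaptic vesicles (0.03 ± 0.0249, 0.408). On the FPKM scale limma called Dnajc5 as a rise of 0.09.

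**Figure D3:**
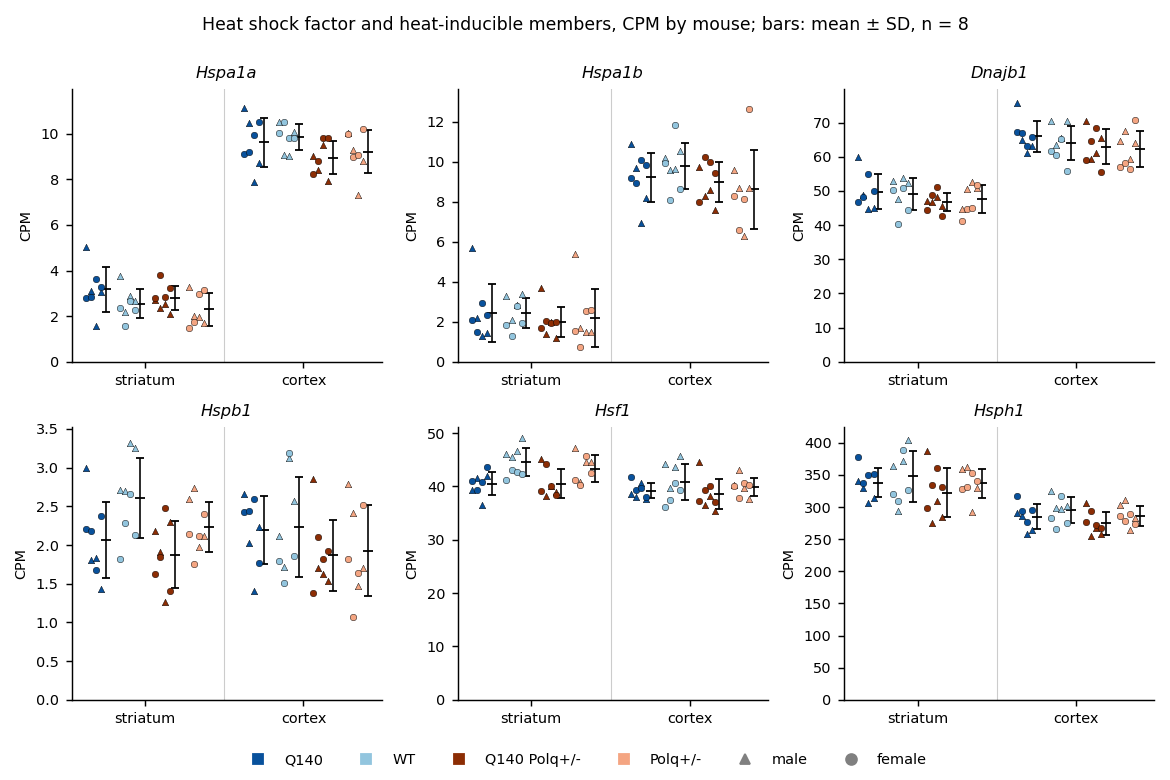
CPM of Hsf1 and 5 heat-inducible members in each mouse by tissue and genotype (triangles male, circles female; horizontal marks and bars, mean ± SD, n = 8). In striatum the genotypes overlap for every gene shown, and Hspa1a and Hspa1b lie lower in striatum than in cortex in every genotype.

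The same question was asked a second time in mice labelled Polq+/-, with no library in common with the first comparison. In Q140 Polq+/- against Polq+/- striatum 22 of 66 members were called (33.3%), against a background of 31.4% (16.1% higher and 15.3% lower): 11 rose and 11 fell, or 24 and 7 on the FPKM scale (all genes, 75.9% rises on FPKM and 51.3% on counts). Of the first comparison's 9 rises 100% rose again, which is 81.8% of the 11 here, and 7 falls were shared, 63.6% of either list. Over all genes the shared rises were 70.0% of the first list and 73.6% of the second, and the shared falls 75.4 and 74.8%. No member called in both changed direction. In all, 26 members were called at least once in striatum and 40 in neither comparison.

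Dnajc8 had 60.8, 64.6 and 67.1 CPM in Q140 Polq+/- striatum against 76.9, 81.0 and 84.0 CPM in Polq+/- striatum (log2 fold change -0.32 ± 0.0312, edgeR adjusted p = 1.81e-10). Dnajc2 fell by 0.32 (edgeR adjusted p = 2.32e-08), Hsp90b1 by 0.29 (0.000147), Dnajc7 by 0.22 (1.41e-07), Hspa4 by 0.16 (0.00053) and Hspe1 by 0.12 (0.0387). Hspa12b fell by 0.34 (edgeR adjusted p = 0.00263), with 5 of 8 endothelial markers falling and none rising and a summed level of 195 to 227 CPM in Q140 Polq+/- and 187 to 247 CPM in Polq+/- striatum. Dnajc12 had 10.3, 11 and 11.5 CPM in Q140 Polq+/- and 8.24, 8.86 and 9.38 CPM in Polq+/- striatum, so that here the groups did not overlap (log2 fold change 0.31 ± 0.0516, edgeR adjusted p = 1.05e-05). Dnajc6 had 225, 232 and 237 CPM in Q140 Polq+/- and 196, 200 and 207 CPM in Polq+/- striatum (0.21 ± 0.0218, edgeR adjusted p = 9.6e-10). Hspa13 rose by 0.20 (edgeR adjusted p = 3.25e-06), Hspa2 by 0.23 (0.00144), Dnajc15 by 0.17 (0.00157), Hspa8 by 0.17 (0.00986), Dnajc18 by 0.12 (0.00099), Hspa12a by 0.12 (0.0389) and Dnajb14 by 0.09 (0.0275). Single libraries decided some of these calls. Hspe1 was not called without any of 18 single libraries (highest edgeR adjusted p = 0.122) or with the plate column (0.166), and Hspa12a without any of 7 (highest edgeR adjusted p = 0.0896), with the plate column (0.136) or with DESeq2's size factors (0.0506). Dnajb14 was not called without Polq+/- female 1 (edgeR adjusted p = 0.0503) or Polq+/- female 3 (0.0673).

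In this comparison, 6 members were called that the first did not call. Dnajb3, which overlaps the Ugt1a cluster on the other strand, fell by 0.55 (edgeR adjusted p = 0.0064) at a low level of 0.644, 0.969 and 1.21 CPM in Q140 Polq+/- and 0.781, 1.43 and 1.88 CPM in Polq+/- striatum. Dnajb5, named for likeness to Hsp40, fell by 0.29 (edgeR adjusted p = 0.0264), Dnajc1 of the ER membrane by 0.19 (0.00664) and Dnajc13, which acts on endosomes, by 0.11 (0.0457). Hspb11, an intraflagellar transport protein despite its symbol, rose by 0.25 (edgeR adjusted p = 0.00449) and Dnajb2, a neuronal J-domain protein that binds ubiquitinated clients, by 0.11 (0.00375). The call for Dnajb5 was lost with the plate column (log2 fold change -0.17, edgeR adjusted p = 0.231), with no filter on low counts (0.0512), on FPKM by limma (adjusted p = 0.0751) and without any of 7 single libraries (highest edgeR adjusted p = 0.0649). That for Dnajc13 was lost without any of 19 single libraries (highest edgeR adjusted p = 0.0991). Dnajc13 was also not called with no filter on low counts (edgeR adjusted p = 0.0581) or with the replicate block (0.0535). On FPKM limma called neither Dnajc13 (highest adjusted p = 0.493) nor Dnajc1 (0.11). Whether these 6 differed between the comparisons was tested by the interaction, which called no member. Hsf1 (-0.10 ± 0.041, edgeR adjusted p = 0.0734), Hspa1a (0.28 ± 0.187, 0.284), Hspa1b (-0.14 ± 0.317, 0.797), Dnajb1 (-0.02 ± 0.0583, 0.818), Hspb1 (-0.25 ± 0.14, 0.187) and Hsph1 (-0.06 ± 0.0667, 0.533) were not called. The same held for Hspa5 (-0.12, edgeR adjusted p = 0.476), Hspa9 (-0.04, 0.19), Hsp90aa1 (-0.00, 0.973), Hsp90ab1 (0.00, 0.941), Hspd1 (-0.01, 0.81), Dnaja1 (-0.03, 0.659), Dnajb6 (0.01, 0.906) and Dnajc5 (0.02, 0.635).

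Some members separated the groups mouse by mouse. In Q140 against WT striatum the 8 and 8 mice did not overlap for 6 of 66 members (Dnajc2, Dnajc6, Dnajc7, Dnajc8, Hspa13 and Hspa4). The same held for 1508 of 18270 genes (8.25%). In Q140 Polq+/- against Polq+/- striatum the groups did not overlap for 7 of 66 members (Dnajc2, Dnajc6, Dnajc7, Dnajc8, Dnajc12, Hspa2 and Hspa13). The same held for 2110 of 18270 genes (11.5%). In both comparisons the members' share lay near that of all genes. The 5 members common to both lists were Dnajc2, Dnajc6, Dnajc7, Dnajc8 and Hspa13.

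**Figure D4:**
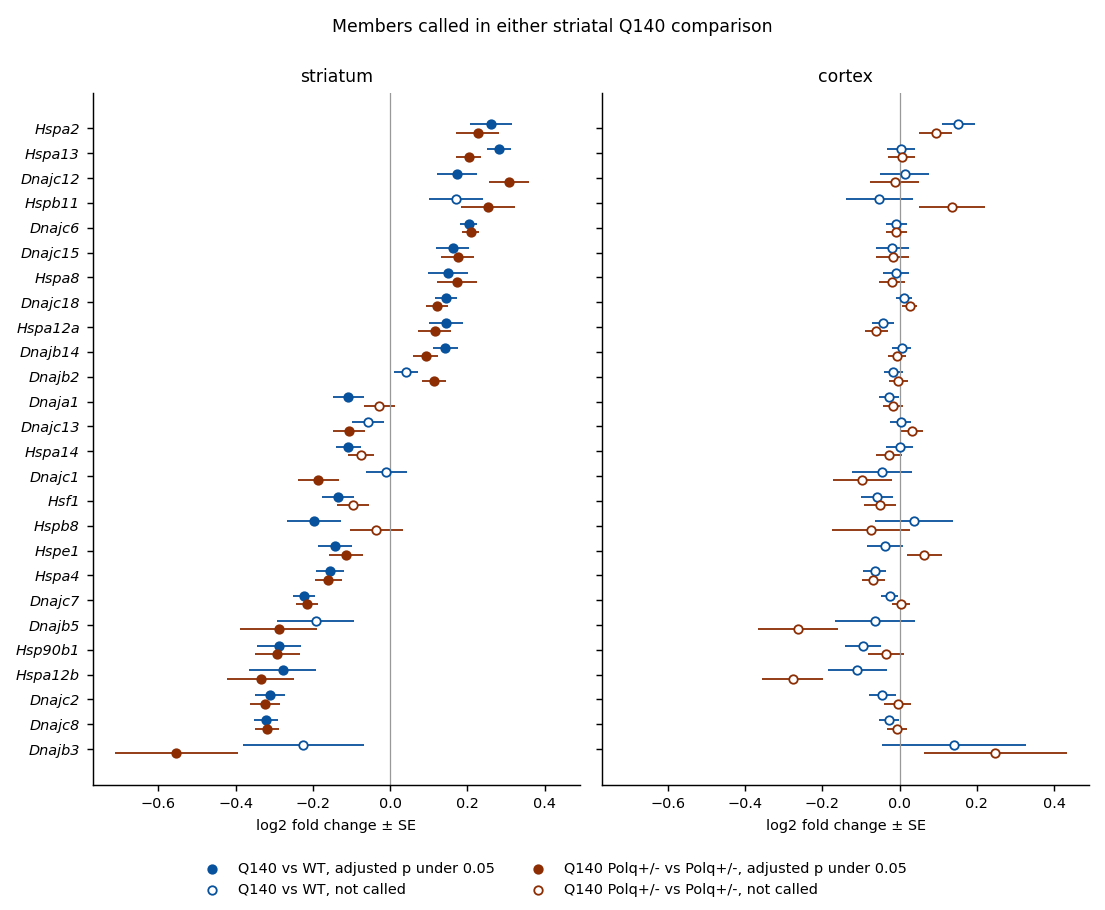
Log2 fold change ± SE of the 26 members called in either striatal comparison, in striatum (left) and cortex (right), for Q140 over WT (blue) and Q140 Polq+/- over Polq+/- (brown); filled points have an adjusted p under 0.05. In striatum 16 members were called in both comparisons in 1 direction, and in cortex none of the points is filled.

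Over all 16 Q140 carriers against all 16 non-carriers, a contrast that averages both comparisons above, 34 of 66 striatal members were called (51.5%) against a background of 44.8% (23.6% higher and 21.2% lower), with 16 rises and 18 falls (31 and 9 on the FPKM scale). The 12 largest rises were those of Hspa13 (log2 fold change 0.24), Hspa2 (0.24), Dnajc12 (0.24), Hspb11 (0.21), Dnajc6 (0.21), the row named Gm45902 (0.19), Dnajc15 (0.17), Hspa8 (0.16), Dnajc18 (0.13), Hspa12a (0.13), Dnajc4 (0.12) and Dnajb14 (0.12). The 12 largest falls were those of Dnajb3 (-0.39), Dnajc8 (-0.32), Dnajc2 (-0.32), Hspa12b (-0.31), Hspb1 (-0.29), Hsp90b1 (-0.29), Dnajb5 (-0.24), Dnajc7 (-0.22), Hspa4 (-0.16), Hspe1 (-0.13), Hsf1 (-0.12) and Hspb8 (-0.12). The call for Hspb8 was lost without any of 24 single libraries (highest edgeR adjusted p = 0.101). Hspb1, the inducible small heat shock protein Hsp27, was called by edgeR in this larger contrast and in neither smaller one (SE 0.0985, edgeR adjusted p = 0.0148), beside 7 of 8 endothelial and 4 of 6 mural cell markers that fell, whose part was not tested. With the plate column as a covariate neither Hspb1 (edgeR adjusted p = 0.142) nor Dnajb5 (0.106) was called. Hspa1a had a log2 fold change of 0.30 ± 0.132 and missed the threshold (edgeR adjusted p = 0.0655). It was called by DESeq2 (adjusted p = 0.0476), by limma on FPKM (adjusted p = 0.0216), and by edgeR with the plate column (adjusted p = 0.0245) or the replicate block (adjusted p = 0.0222).

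By family, the called members of this larger contrast were spread over nearly every class. The background for these counts was the 44.8% of all genes called (23.6% higher and 21.2% lower). Of 25 DNAJC genes tested 6 rose and 5 fell, of 11 DNAJB genes 3 rose and 4 fell, and of 4 DNAJA genes 1 rose and 1 fell. Of 6 cytosolic Hsp70 rows 3 rose and 1 fell, and of 3 Hsp90 genes and 3 Hsp110 genes 1 each fell. The cytosolic Hsp70 fall was that of Hspa14 (-0.09) and 1 of the rises that of the row named Gm45902 (0.19), which overlaps it on the same strand. The median log2 fold change was 0.17 over the cytosolic Hsp70 rows, 0.01 over the DNAJC genes and 0.00 over all genes. A class median is a description, since classes of this size hold few genes. Nothing particular to a class is read from the counts.

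Partner genes outside the symbol rule were counted as well, from lists of known co-factors. In Q140 against WT striatum the background for these lists was the 32.1% of all genes called (16.9% higher and 15.2% lower), with a median log2 fold change of 0.00 over all genes. Of 19 Hsp70 co-factors, 1 rose and 4 fell (median log2 fold change -0.01). Bag2, an inhibitor of the ubiquitin ligase CHIP, rose by 0.60 (edgeR adjusted p = 3.29e-06). Stub1, which encodes CHIP, fell by 0.18 (1.71e-05), Bag5, an exchange factor, by 0.18 (1.41e-05) and St13, which stabilises the ADP-bound Hsp70, by 0.11 (edgeR adjusted p = 0.000924). Of 17 Hsp90 co-chaperones 5 rose and 2 fell (median 0.06), with Ahsa2, related to an activator of the Hsp90 ATPase, at 0.51 (edgeR adjusted p = 4.36e-06), the immunophilin Fkbp4 at 0.18 (0.00157), Fkbp8 at -0.17 (9.19e-06) and Tomm70a, the mitochondrial import receptor that docks Hsp70 and Hsp90, at -0.27 (3.35e-08). Of 16 ER folding and unfolded protein response genes 1 rose and 4 fell (median -0.10). These falls were of Atf6, a sensor of unfolded ER protein that raises ER chaperones (-0.47, edgeR adjusted p = 2.62e-10), Ddit3 (-0.27, 0.000146), the disulfide isomerase P4hb (-0.10, 0.00446) and Creld2 (-0.23, 0.00641).

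Of 8 tested subunits of the cytosolic chaperonin TRiC 2 rose and 1 fell, namely Cct6a (0.13, edgeR adjusted p = 0.0031), Cct2 (0.08, 0.0252) and Cct7 (-0.10, 0.018). Of 6 prefoldin subunits 1 rose and 2 fell: Vbp1 (0.21, edgeR adjusted p = 0.000116), Pfdn2 (-0.20, 8.65e-06) and Pfdn4 (-0.15, 0.0283). Of 6 tested relatives of Hsf1 and small heat shock genes 1 rose, Hsf2 (0.14, edgeR adjusted p = 0.00747). In Q140 Polq+/- against Polq+/- striatum the counts were 1 rise and 6 falls for Hsp70 co-factors, 4 and 2 for Hsp90 co-chaperones, 1 and 4 for the ER list, 3 and 0 for TRiC, 1 and 1 for prefoldin and 2 and 0 for the Hsf list, against a background of 31.4% of all genes called (16.1% higher and 15.3% lower). Nothing particular to a list is read from these counts. Atf6 fell by 0.47 there too (edgeR adjusted p = 2.54e-10), Bag2 rose by 0.52 (3.8e-05) and Stub1 fell by 0.15 (0.00022).

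In cortex few differences were found. No member was called in Q140 against WT (edgeR; 6 of 70 at an unadjusted p under 0.05, smallest adjusted p = 0.124 for Hspa2; 0 by DESeq2), where 0.348% of all genes were called. None was called in Q140 Polq+/- against Polq+/- (edgeR; 9 at an unadjusted p under 0.05, smallest adjusted p = 0.0976 for Dnajc21; 1 by DESeq2), where 0.337% of all genes were. By edgeR, 1770 and 1884 of 18116 genes lay at an unadjusted p under 0.05 in these 2 comparisons. Over all carriers 3 of 70 members were called (4.29%), against 2.46% of all genes (0.85% higher and 1.61% lower). Dnajc21, a ribosome biogenesis factor, had 50.4, 58.5 and 62.3 CPM in Q140, 55.2, 64.1 and 75.7 CPM in WT, 49.9, 54.7 and 59.5 CPM in Q140 Polq+/- and 58.1, 63.0 and 71.3 CPM in Polq+/- cortex. It fell by 0.20 (SE 0.0409, edgeR adjusted p = 0.00545). Hspa2 rose by 0.12 (SE 0.0303, edgeR adjusted p = 0.0185) and Hspa12b fell by 0.19 (SE 0.0549, edgeR adjusted p = 0.0483). In cortex none of 8 endothelial markers was called, and their summed level was 208 to 246 CPM in both Q140 groups and 208 to 269 CPM in WT and Polq+/- mice. The Hspa12b call was lost without any of 22 single libraries (highest edgeR adjusted p = 0.0935). With the plate column as a covariate only Hspa2 of the 3 was still called. Dnajc21 (log2 fold change -0.17, edgeR adjusted p = 0.0643) and Hspa12b (-0.15, 0.279) were not. Hspa12b was not called with the replicate block either (edgeR adjusted p = 0.0571), nor on FPKM by limma (highest adjusted p = 0.0881). Without Polq+/- male 3 or without Q140 Polq+/- male 1 the count of called members was 5.

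For the 17 members described in every Q140 comparison (Hsf1, Hspa1a, Hspa1b, Hspa5, Hspa8, Hspa9, Hsph1, the 3 Hsp90 genes, Hspd1, Hspe1, Hspb1, Dnaja1, Dnajb1, Dnajb6 and Dnajc5), the cortical log2 fold changes in Q140 against WT ran from -0.16 ± 0.0904 (Hspa5, edgeR adjusted p = 0.581) to 0.04 ± 0.0512 (Dnajb1, 0.84). In Q140 Polq+/- against Polq+/- they ran from -0.11 ± 0.0905 (Hspa5, edgeR adjusted p = 0.714) to 0.06 ± 0.0455 (Hspe1, 0.671). Hsp90b1 was at -0.10 ± 0.0457 (edgeR adjusted p = 0.499) in the first and -0.04 ± 0.0457 (0.842) in the second, and Hspa8 at -0.01 ± 0.0341 (0.963) and -0.02 ± 0.0341 (0.892). Of the partner lists, over all carriers 2 ER genes fell in cortex, Ddit3 by 0.17 (edgeR adjusted p = 0.000162) and Atf6 by 0.09 (0.0113), and no gene of the other 5 lists was called. The background there was 2.46% of all genes called (0.85% higher and 1.61% lower), and nothing particular to a list is read from this.

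The difference of the Q140 effects between the tissues was tested within mice, over both Polq labels. It was called for 25 of 70 members (35.7%), against a background of 32.1% (15.7% higher and 16.3% lower), with 14 differences above and 11 below 0 (23 and 7 on the FPKM scale, where 72.0% of all calls were above 0 against 49.1% on counts). The effect was lower in striatum than in cortex by 0.31 for Dnajc8 (log2, SE 0.0251, edgeR adjusted p = 2.65e-13), by 0.30 for Dnajc2 (3.62e-08), by 0.23 for Hsp90b1 (7.19e-10) and by 0.21 for Dnajc7 (2.96e-08). It was higher in striatum by 0.23 for Hspa13 (edgeR adjusted p = 4.28e-09), by 0.23 for Dnajc12 (0.000262), by 0.21 for Dnajc6 (1.12e-09) and by 0.17 for Hspa8 (7.94e-06). For Hspa1a the difference was 0.33 ± 0.112 (edgeR adjusted p = 0.02), while its own effect over all carriers missed the threshold in striatum, apart from the alternatives above that called it, and had an edgeR adjusted p of 0.783 in cortex. For Hspa12b, whose fall was called in both tissues, the difference was -0.11 ± 0.061 (edgeR adjusted p = 0.161), and for Dnajc21, called in cortex, it was 0.20 ± 0.0401 (edgeR adjusted p = 8.84e-05). The cortical calls of both genes were lost with the plate column as a covariate.

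By edgeR neither the Polq label nor sex gave a called member. In striatum the comparison of Polq+/- with WT called 0 of 66 members (edgeR; 3 at an unadjusted p under 0.05; 0 by DESeq2; 0.0493% of all genes called). That of Q140 Polq+/- with Q140 called 0 (1 at an unadjusted p under 0.05; 0 by DESeq2; 0.0547% of all genes). The interaction of Q140 and the Polq label called 0 (1 at an unadjusted p under 0.05, Dnajc1 at -0.18 ± 0.0761, edgeR adjusted p = 0.996; 0 by DESeq2; 0% of all genes). In cortex the same 3 comparisons by edgeR called 0 of 70 (1, 5 and 0 at an unadjusted p under 0.05; 0.0442, 0.0552 and 0% of all genes; 0 by DESeq2). Males and females differed in 0 of 66 members in striatum (4 at an unadjusted p under 0.05; 0 by DESeq2; 0.367% of all genes) and 0 of 70 in cortex (5; 1 by DESeq2; 1.15%). The nearest in cortex was Hsp90ab1, 0.05 ± 0.0152 log2 higher in males than in females (edgeR adjusted p = 0.0785). The Q140 effect in males minus that in females called 0 members in striatum and 0 in cortex (9 and 10 at an unadjusted p under 0.05; 0 by DESeq2 in both; 0% of all genes in both). Over all genes, 924, 611 and 893 of 18270 lay at an unadjusted p under 0.05 in the 3 striatal Polq contrasts (edgeR). In cortex 841, 1136 and 863 of 18116 did. Between the sexes the counts were 1621 in striatum and 2354 in cortex. For the sex difference of the Q140 effect they were 881 and 1102. The median SE of a member's log2 fold change was 0.0426 in the striatal Polq comparison within Q140 mice and 0.0599 in the striatal sex difference, which sets the size of change these contrasts could show.

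The tissues themselves differed far more than the genotypes. In WT mice 65 of 70 members were called between striatum and cortex (92.9%), against a background of 77.2% (39.1% higher and 38.1% lower), 28 higher and 37 lower in striatum. Of the lower ones 4 (Hspa1l, Hspb2, Hspb3 and Hspb7) entered the test only through cortex, where they passed the filter on low counts, so that their direction was largely set by the filter. Without these 4, 61 of 66 members were called (92.4%), 28 higher and 33 lower. Libraries of the tissues sat in separate plate columns (1 to 4 for striatum and 5 to 8 for cortex), so tissue and plate position cannot be told apart. Genotypes were not spread evenly over the columns either. In striatum column 1 held WT but not Q140 libraries, and column 4 held Q140 Polq+/- but not Polq+/- libraries. The Q140 calls lost with the plate column as a covariate therefore carry that limit. Of these 61 called members 48 differed by less than 0.5 on the log2 scale, 4 were more than 1 lower in striatum and 3 more than 1 higher.

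Dnajc21 had 9.85, 11.9 and 13.9 CPM in WT striatum and 55.9, 65.2 and 77.1 CPM in WT cortex, with no overlap (-2.46 ± 0.0397, edgeR adjusted p = 9.84e-40). The inducible Hsp70 genes were lower in striatum too: Hspa1a had 1.55, 2.48 and 3.71 CPM in WT striatum and 9.17, 10.1 and 10.7 CPM in WT cortex (-2.01 ± 0.109, edgeR adjusted p = 3.17e-19), and Hspa1b was at -2.08 (1.85e-12). Hspa12a (-1.18, edgeR adjusted p = 3.51e-29), Dnajc6 (-0.98, 1.25e-33), Dnajb5 (-0.58, 1.38e-22), Hspbp1 (-0.53, 1.23e-18), Hsp90aa1 (-0.49, 5.12e-18), Dnajc4 (-0.49, 5.94e-14), Dnajb6 (-0.48, 7.76e-18) and Dnajb1 (-0.43, 2.68e-15) were lower in striatum as well. Of the 4 members that passed the filter in cortex only, Hspb3, known from skeletal muscle and motor neurons, had 0.0309, 0.156 and 0.191 CPM in WT striatum and 2.28, 2.52 and 3.94 CPM in WT cortex. This is a level and not a test of direction. Hspb2 overlaps Cryab on the other strand, and Cryab was higher in striatum (log2 fold change 0.56, edgeR adjusted p = 1e-11).

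On the higher side, Dnajc2 had 45.1, 51.9 and 57.5 CPM in WT striatum and 22.9, 25.3 and 26.1 CPM in WT cortex (log2 fold change 1.04 ± 0.0384, edgeR adjusted p = 1.76e-26). Dnajc7 had 177, 195 and 210 CPM in WT striatum and 123, 128 and 133 CPM in WT cortex (0.60 ± 0.0273, edgeR adjusted p = 2.66e-23). Its overlapping neighbour Cnp, an oligodendrocyte marker, was higher in striatum by 1.28 (edgeR adjusted p = 4.57e-23), as were 8 of 8 oligodendrocyte markers, and their part in the Dnajc7 value was not tested. Dnajb4 (0.69, edgeR adjusted p = 8.89e-27), Hspb11 (0.57, 7.37e-09), the row named Gm45902 (0.49, 6.42e-09), Dnajc24 (0.47, 1.6e-07), Hspe1 (0.44, 1.59e-14), Dnajc17 (0.44, 1.03e-07), Dnajc9 (0.37, 8.5e-12), Hspa13 (0.29, 9.93e-13), Dnajc12 (0.28, 3.62e-06) and Dnajc8 (0.28, 2.41e-13) followed. At under 1 CPM on average, Dnajb3 (1.06, edgeR adjusted p = 2.84e-06) and Dnajb13, a gene of motile cilia and sperm tails (1.15, 0.00865), were higher too. Dnajb13 had 0.278 to 0.819 CPM in WT striatum and 0.0322 to 0.376 CPM in WT cortex, beside ependymal markers that summed to 16.2 to 34.2 CPM in WT striatum and 4.35 to 5.94 CPM in WT cortex. Their part in it was not tested.

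Both axes were then set side by side for mice of separate genotypes, so that no library served on both. Of 10 members that fell in Q140 Polq+/- against Polq+/- striatum and were called between the WT tissues, 8 were higher in WT striatum (80%), and of 11 that rose, 3 were (27.3%). Over all genes the shares were 73.8% of 2486 falling genes and 30.9% of 2480 rising genes, so the members lay close to the pattern of genes in general.

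**Figure D5:**
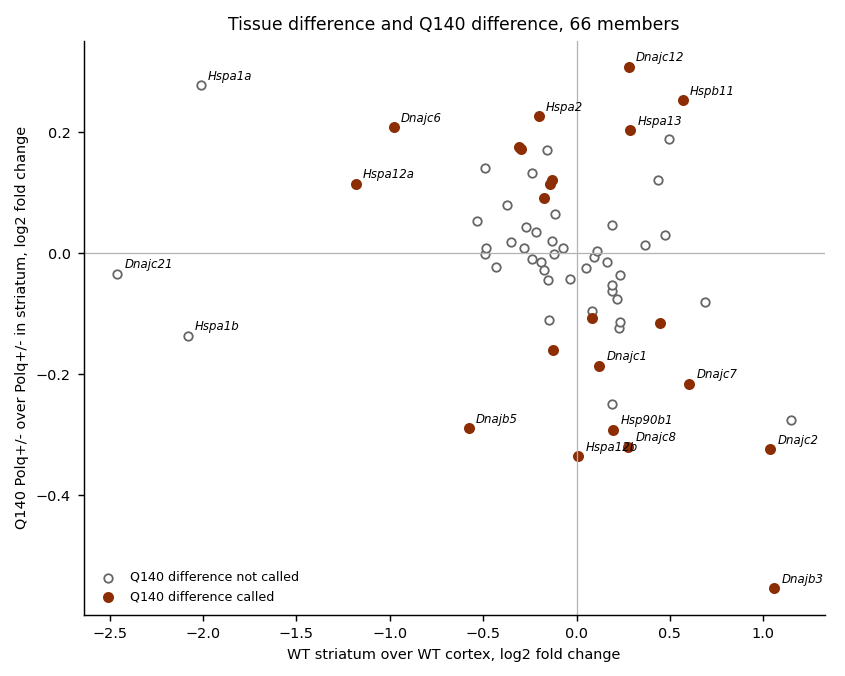
Log2 fold change of WT striatum over WT cortex (x) against that of Q140 Polq+/- over Polq+/- striatum (y) for the 66 members tested in both; filled points were called for Q140. Dnajc2, Dnajc7 and Dnajc8 lie lower right (higher in striatum, lower with Q140), Dnajc6 and Hspa12a upper left, and Hspa13 and Dnajc12 are higher on both axes.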

How the data were processed

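RNA-seq of striatum and cerebral cortex was measured in 64 libraries from 32 mice, with total RNA from a Qiagen RNeasy kit and Illumina TruSeq stranded libraries, per the labels' protocols. The submitters' processing notes name STAR 2.7.5c, SAMtools 1.10, HTSeq 0.12.3 and the GRCm38 (mm10) build. Whether HTSeq counted by strand is not stated in the labels or notes, so members that overlap another gene carry that limit. The authors deposited raw read counts per gene and FPKM values, both for 48795 genes. The deposited FPKM equal the same counts divided by 1 factor per gene and 1 per library, with a largest relative spread of 6.9e-09 over 15456 genes. Overlaps and coordinates came from GENCODE vM21 gene models, where 48349 identifiers and all 76 members matched, and promoters from RefSeq GRCm38.p6.

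Counts were tested with edgeR 4.0.16 (R 4.3.3; robust quasi-likelihood, TMM scaling, filterByExpr by genotype), with 1 fit per tissue over 32 libraries and sex as a covariate. Striatum against cortex and the difference of the Q140 effects came from 1 joint fit (64 libraries), in which each mouse was its own block. The sex difference of the Q140 effect used a genotype by sex fit. P-values were adjusted by Benjamini-Hochberg over all genes tested, and a gene was called at an adjusted p under 0.05. The SE is the absolute log2 fold change divided by the square root of F. The steps were tested on simulated counts with known changes. Within a tissue the libraries are of separate animals, and each animal gave 1 library per tissue. No pair of libraries within a group agreed within sampling noise. Depth was 28.7 to 40.6 M counts per library.

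Named in every Q140 comparison were 17 members fixed by symbol. Beyond these, called members with a mean of at least 1 CPM were named, the 12 largest rises and the 12 largest falls, with up to 4 called genes of each partner list. Members, lists and alternatives were chosen with earlier results of these data known. Alternatives were DESeq2 1.42.0, its size factors in edgeR, limma 3.58.1 on log2(FPKM + 0.1) and log2(FPKM + 1), no filter on low counts, only the groups compared, a replicate block, a covariate for plate column, and leaving out libraries.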

Additional observations from a re-analysis of the deposited data

Results flagged for a closer look

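Within groups of 8 mice, 26 of 388 group levels held a mouse whose gap to its neighbour exceeded Dixon's critical value of 0.526 times the group's range (6.7%), where chance flags about 1 in 20. WT striatum male 3 gave 8 of them. Its levels were 101 CPM for Dnajb14, 73.8 CPM for Dnajc13, 296 CPM for Dnajc5 and 5.28 CPM for the row named Gm45902 (Hspa14_ENSMUSG00000051396), each the lowest in WT striatum, and 28.6 CPM for Dnajb6, 35.0 CPM for Dnajc9, 231 CPM for Hspa9 and 52.2 CPM for Hspbp1, each the highest.

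Hspa1b stood out in striatum in the mouse numbered male 1 of 3 genotypes. It had 5.7 CPM in Q140, where the other mice had 1.30 to 2.94 CPM, 3.67 CPM in Q140 Polq+/-, where the others had 1.20 to 2.02 CPM, and 5.4 CPM in Polq+/-, where the others had 0.713 to 2.59 CPM. In the labels' animal names the male 1 mice of Q140 Polq+/- and Polq+/- also share their first part, with Polq+/- male 2 (1.67 CPM), WT male 1 (3.31 CPM) and WT male 2 (2.11 CPM), while Q140 male 1 does not. What that part stands for is not stated in the labels.

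The other striatal values were 14.8 CPM for Dnajc15 in Q140 male 3, 59.5 CPM for Dnaja3 in Polq+/- female 3, 101 CPM for Dnajc18 and 25.4 CPM for Hspa14 in Polq+/- female 1, and 2.0 CPM for Dnajb3 in WT female 4. In cortex they were 75.8 CPM for Dnajb1 in Q140 male 1, 11.3 CPM for Hspb8 in Q140 Polq+/- male 1 and 4.18 CPM for Hspb3 in Q140 Polq+/- male 4. In Polq+/- cortex they were 433 CPM for Dnajc5 in male 4, 249 CPM for Hspa4l in male 1, and 70.0 CPM for Dnajc8 and 7.12 CPM for Hspb8 in female 2. In WT cortex they were 104 CPM for Dnaja1 in female 2, and 7.14 CPM for Dnajc24 and 24.4 CPM for Dnajc9 in male 1.

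The Q140 effect in striatum minus that in cortex differed from 0 for 24 members with a mean of at least 1 CPM (paired edgeR fit, adjusted p under 0.05). Below 0 were Dnajc8 (-0.31), Dnajc2 (-0.30), Hsp90b1 (-0.23), Dnajc7 (-0.21), Hspe1 (-0.15), Dnajb4 (-0.12), Dnajc13 (-0.11), Hspa4 (-0.10), Hspa14 (-0.09) and Dnajb5 (-0.08). Above 0 were Dnaja3 (0.06), Dnajb2 (0.08), Hspa4l (0.09), Dnajc18 (0.11), Dnajb14 (0.11), Hspa2 (0.12), Hspa8 (0.17), Hspa12a (0.18), Dnajc15 (0.18), Dnajc21 (0.20), Dnajc6 (0.21), Hspa13 (0.23), Dnajc12 (0.23) and Hspa1a (0.33). Dnaja3 and Hspa14 were not called by DESeq2 (adjusted p = 0.053 and 0.068) or with no filter on low counts (edgeR adjusted p = 0.159 and 0.173). On FPKM limma did not call Dnajb5, Dnajc13, Hspa14 or Hspa4 with either pseudocount, nor Dnajb4 with pseudocount 1.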

How the results depend on the processing

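In the striatal comparisons of Q140 with WT, Q140 Polq+/- with Polq+/- and carriers with non-carriers, the counts of members called stayed within 1.5 times of 20, 22 and 34 under every alternative run. Leaving out 1 library at a time gave 18 to 24, 19 to 25 and 31 to 35. The members behind the counts changed more: limma on FPKM called 28, 31 and 40, of which edgeR on the counts also called 14, 18 and 25. In cortex DESeq2 called 1 member (Dnajc21) in Q140 Polq+/- against Polq+/- and 1 (Hsp90ab1) between males and females, where limma on FPKM also called 1 with either pseudocount. There, leaving out 1 library gave 0 to 1. Over all cortical carriers, where 3 members were called, the plate column left 1, and leaving out 1 library gave 2 to 5. For Hsp90ab1 the log2 difference of striatal carriers was -0.00 on the counts and 0.061 on FPKM with either pseudocount, where it was called. Such a shift was not particular to Hsp90ab1. In the same contrast Hsf1 was at -0.116 on the counts and -0.052 on FPKM with pseudocount 0.1, and Dnajc5 at 0.024 and 0.089. The cause of the shift was not tested.

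With the replicate number as a block, 20, 21 and 33 members were called in the same 3 striatal comparisons and 2 in cortical carriers. Same-numbered mice correlated with a median r of 0.02 in striatum and 0.027 in cortex over 48 pairs each, so the numbers did not pair the mice.

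Lost with the plate column in Q140 against WT striatum were Dnaja1, Hsf1, Hspb8 and Hspe1, and on FPKM the same 4 with Hspa12b and Hspa14. In Q140 Polq+/- against Polq+/- striatum the plate column lost Dnajb5, Hspa12a and Hspe1, and FPKM lost Dnajb5, Dnajc1, Dnajc13 and Hspe1. The SE of Hspa1a, Hspa1b, Hspb1 and Dnajb3, at 1 to 3 CPM, ran from 0.138 to 0.317 in these 2 comparisons, where counting error alone gives 0.073 to 0.113.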
